A study of Mus musculus with 12 samples.

Results

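The IL-23 and IL-12 receptor chains and kinases comprised 6 named genes, Il23r, Il12rb1, Il12rb2, Stat4, Jak2 and Tyk2, of the 18601 genes in the matrix, and all 6 were measured. They were chosen by name and are described across 12 mouse libraries of single-cell RNA sequencing, all labelled as CD4 T cells, and between cells with and without CD3 transcripts. The Th1 cells given to the recipients were Il23r wt/eGFP (control) or Il23r eGFP/eGFP (KO), so the control cells also carried 1 eGFP allele. Each genotype gave 2 libraries of spleen and 2 of colon lamina propria (replicates 1 and 2). Small intestine lamina propria and colon epithelium (intraepithelial lymphocytes) had 1 library per genotype, both of replicate 2. The sources used here do not give the construction of the eGFP allele, or the strain, age and own lymphocytes of the recipients. The labels do not say whether replicates were separate animals, so p-values measure the spread between these samples, which may be technical.

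IL-12 and IL-23 are heterodimeric cytokines made by antigen-presenting cells that share a subunit. The IL-12 receptor pairs IL-12R beta 1 (Il12rb1) with IL-12R beta 2 (Il12rb2), whereas the IL-23 receptor pairs the same beta 1 chain with IL-23R (Il23r). Beta 1 binds the kinase TYK2 and the partner chain binds JAK2. IL-12 signals mainly through STAT4 toward interferon gamma and the Th1 state, and IL-23 mainly through STAT3 toward IL-17 and IL-22. In the gut, group 3 innate lymphoid cells (ILC3), which lack surface CD3, are known to respond to IL-23.

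Cells were called CD3-positive when Cd3d, Cd3e and Cd3g together gave 3 or more unique molecular identifiers (UMIs, each standing for 1 captured transcript) and CD3-low at 1 or less. There were 29623 CD3-positive cells (90.4% of 32763) and 2248 CD3-low cells (6.86%), and 892 cells with 2 CD3 UMIs were in neither class. The genotype is that of the transferred Th1 cells. Whether CD3-low cells came from these or from the recipients is not known here. For CD3-low cells, KO and control therefore name the library and not a known Il23r genotype of the cell. The libraries held 3107528 to 14292028 UMIs and 981 to 4079 cells. CD3-low cells made up 0.835% of the control colon epithelium library and 42.5% of the KO small intestine library. A barcode occurring in another library was found for 1363 cells (4.16%), with at most 27 shared by any 2 libraries. Of 8 T cell markers, Trac, Trbc1 and Trbc2 were not in the matrix used here, and the other 5 summed to 1888 to 2738 CPM (a gene's UMIs over all UMIs of the summed cells, on the counts-per-million scale) in the CD3-positive cells of single libraries. In CD3-low cells the erythroid list summed to between 75.7 and 204988 CPM across libraries, and the ILC3 list to between 504 and 28264 CPM. Reads were tagged at the 3′ end, and the construction of the eGFP allele is not given. Whether the Il23r level can check a genotype label is therefore not known, and it was not used as a check.

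Il23r and Il12rb2, the chains that set the receptors apart, are neighbours on mouse chromosome 6 (positions from GENCODE M21 on GRCm38). Il23r lies on the minus strand at chr6:67422932-67491855 and Il12rb2 on the same strand at chr6:67291318-67376188. The gap between them is 46743 bases and holds 0 protein-coding genes. Il12rb1 lies at chr8:70808449-70821424, Stat4 at chr1:51987148-52107189 and Jak2 at chr19:29251828-29313080, all on the plus strand. Tyk2 lies on the minus strand at chr9:21104068-21131243. Il12rb2 overlaps Serbp1 and Tyk2 overlaps 1700084C06Rik, each on the opposite strand. Stat4 overlaps Gm28177 on its own strand and Gm3940 on the other. The sources used here do not say whether counting used strand, so reads of overlapping genes may be shared. Promoter windows from RefSeq (GRCm38.p6) were matched for 5 of the 6 genes, all but Il12rb1.

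The 250 bases upstream of the start of the neighbours Il23r (chr6:67491856-67492105, minus strand) and Il12rb2 (chr6:67376189-67376438, minus strand) are shown because their levels differed most between the cell classes described later. They are written 5′ to 3′ with motif matches in capitals.
Il23r: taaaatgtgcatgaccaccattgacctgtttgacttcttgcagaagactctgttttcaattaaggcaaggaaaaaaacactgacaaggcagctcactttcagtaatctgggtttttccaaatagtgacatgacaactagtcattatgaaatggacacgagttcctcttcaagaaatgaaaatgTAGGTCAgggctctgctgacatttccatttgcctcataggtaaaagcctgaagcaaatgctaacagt
Il12rb2: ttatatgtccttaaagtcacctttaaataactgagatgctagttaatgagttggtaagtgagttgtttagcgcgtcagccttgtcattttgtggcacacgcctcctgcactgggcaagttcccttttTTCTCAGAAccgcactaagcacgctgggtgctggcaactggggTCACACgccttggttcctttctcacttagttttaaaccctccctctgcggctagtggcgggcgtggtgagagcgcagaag
Motifs were searched on both strands: the ROR element TAGGTCA, the T-box half-site TCACAC and the STAT element TTCNNNGAA. They were chosen after these sequences had been read, and no 2 matches overlapped. The Il23r window held 1 ROR element, 67 bases before the start, a match found in 2.23% of 32851 promoter windows. The Il12rb2 window held a T-box half-site 80 bases before the start (12.3% of windows) and a STAT element 123 bases before it (7.02%). The first of the Stat4 windows held an ROR element at 70 bases, and the Jak2 and Tyk2 windows held no match to these letters.

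The first comparison asked whether the genes differed between KO and control T cells. None of the 6 passed the test in spleen, in colon lamina propria or over all 12 libraries. Il23r transcripts were counted in KO libraries too. In CD3-positive cells of control spleen, Il23r stood at 1.26 CPM (replicate 1) and 0.994 CPM (replicate 2), and in KO spleen at 3.36 and 0.682 CPM. Control colon lamina propria had 0.994 and 1.67 CPM, and KO colon lamina propria 2.49 and 2.17 CPM. The KO value was higher in 4 of the 6 pairs and lower in spleen replicate 2 and colon epithelium, and the groups overlapped in spleen. The log2 fold change of KO against control over 12 libraries was 0.52 ± 0.41 (SE), with an adjusted p of 1.0 in edgeR's quasi-likelihood test with Benjamini-Hochberg adjustment. In the same fit the log2 fold changes of Il12rb2, Stat4, Jak2 and Tyk2 lay between 0.10 and 0.29.

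Il12rb1, the shared chain, had the smallest unadjusted p of the 6 genes in the fit over 12 libraries, 0.0274, with a log2 fold change of 0.36 ± 0.14 (SE) and an adjusted p of 1.0. It stood at 23.6 to 51.6 CPM in the 6 control libraries (median 31.8) and at 27.3 to 75.9 CPM in the 6 KO libraries (median 44.1), with overlap. Its KO level was higher in the 4 pairs of replicate 2, by log2 0.52 to 0.76, and lower in the pairs of replicate 1, by log2 -0.20 in spleen and -0.12 in colon lamina propria. Replicate number is also the batch of the deposited cell table, so the sign of the difference went with the batch, whose part was not tested. Il12rb2, Stat4 and Jak2 also moved up in KO colon lamina propria of replicate 2 (log2 0.87, 0.58 and 0.64) but not of replicate 1 (-0.56, 0.0078 and -0.42). Control colon replicate 2 was the lowest of the 4 colon lamina propria libraries for these 3 genes. Over all genes 0% were called in each of these comparisons. At an unadjusted p under 0.05 there were 128 genes in spleen, 123 in colon lamina propria and 525 over 12 libraries. DESeq2 called 3 genes in spleen, 0 in colon lamina propria and 3 over 12 libraries, none of them one of the 6. Of the other genes of the pathway, from ligands to targets, none was called in these comparisons.

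Il12rb2, Stat4, Jak2 and Il12rb1 were higher in T cells of the colon lamina propria than in T cells of the spleen, and Il23r and Tyk2 did not pass the test. So 4 of the 6 genes were called higher, where 37.6% of 11305 genes were called, 18.7% higher and 18.9% lower. In such sums, fewer cells that carry a transcript and less transcript per cell cannot be told apart.

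Il12rb2, the chain specific to IL-12, was at 17.2 CPM (replicate 1) and 26.8 CPM (replicate 2) in control spleen and at 19.95 and 20.09 CPM in KO spleen. In colon lamina propria the control libraries had 110 and 55.6 CPM and the KO libraries 74.5 and 102 CPM. Every colon library was above every spleen library, and the log2 fold change was 2.24 ± 0.28 (SE), adjusted p = 0.000166 (edgeR). Among cells thinned to 1500 UMIs each, 3.01% of splenic and 11.2% of colonic CD3-positive cells held an Il12rb2 UMI (7.42% and 22.0% without thinning).

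Jak2, the kinase bound to Il12rb2 and Il23r chains, was at 12.4 to 17.4 CPM in the 4 spleen libraries. Control colon lamina propria had 85.1 and 28.5 CPM and KO colon lamina propria 63.6 and 44.3 CPM. The groups did not overlap, and the log2 fold change was 2.19 ± 0.36 (adjusted p = 0.00123, edgeR). Stat4, the factor downstream of the IL-12 receptor, was at 58.9 to 76.7 CPM in spleen. In colon lamina propria it reached 205 and 97.5 CPM with control cells and 206 and 145 CPM with KO cells, again with no overlap. Its log2 fold change was 1.51 ± 0.26 (adjusted p = 0.00121, edgeR). Il12rb1 was at 29.3 ± 4.98 CPM in spleen and 36.6 ± 11.1 CPM in colon lamina propria (SD, n = 4 each), with overlapping values. Its log2 fold change of 0.50 ± 0.17 had an adjusted p of 0.0391 in edgeR, over the threshold in 6 of 14 alternatives. These were the use of all cells and the omission of control spleen replicate 2, either KO spleen library, control colon replicate 1 or KO colon replicate 2, with adjusted p from 0.0622 to 0.125. Without the last, its highest colon library, the log2 fold change was 0.36.

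Il23r was at 1.57 ± 1.21 CPM in splenic and 1.83 ± 0.652 CPM in colonic CD3-positive cells (SD, n = 4 each), a log2 difference of 0.52 ± 0.49 (SE; adjusted p = 0.421, edgeR). Tyk2, the kinase bound to beta 1, was at 15.4 ± 3.28 and 11.53 ± 2.40 CPM (SD, n = 4 each), a log2 difference of -0.22 ± 0.20 (SE; adjusted p = 0.425, edgeR).

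**Figure D1:**
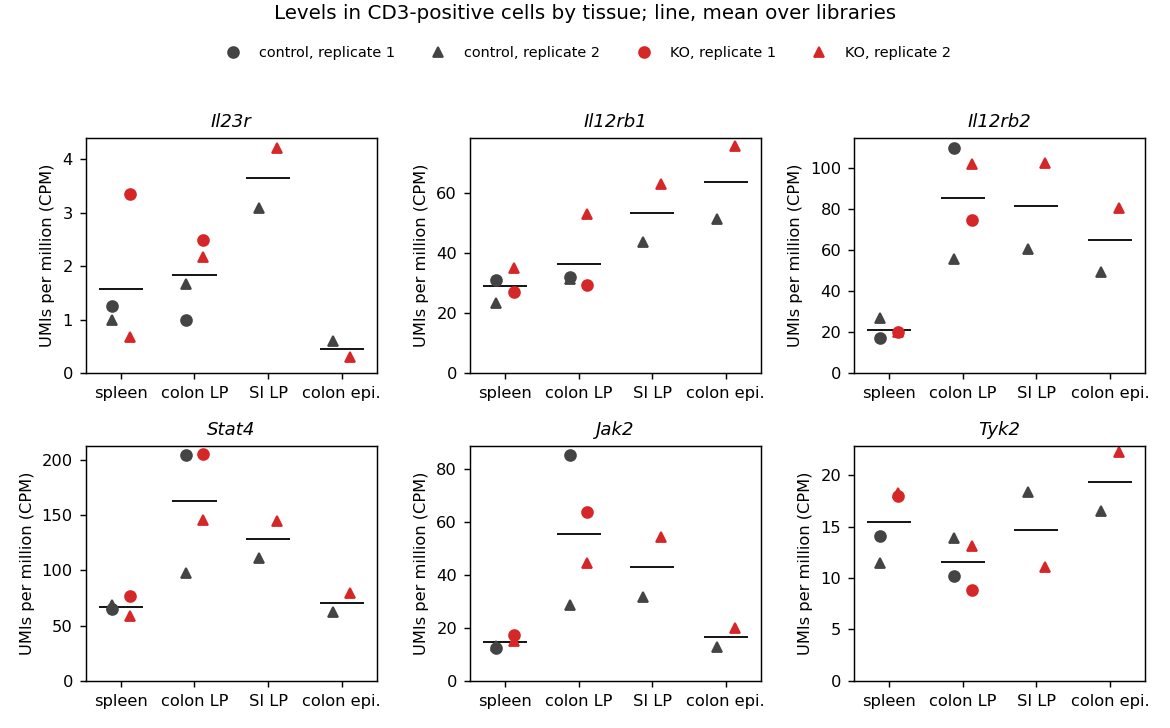
Levels of the 6 genes in CD3-positive cells, in CPM (y axis from 0), for each library of spleen, colon lamina propria (LP), small intestine lamina propria (SI LP) and colon epithelium (epi.); colour gives the genotype, symbol the replicate number and the line the mean over libraries. Il12rb2, Stat4 and Jak2 sit higher in every colon lamina propria library than in every spleen library; KO and control points overlap in some panels and not in others, as for Tyk2 in spleen (17.98 and 18.3 CPM in KO, 14.1 and 11.4 CPM in control).

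Some genes around the receptors were also called between colon lamina propria and spleen, where 18.7% of 11305 genes were called higher and 18.9% lower. Of 10 related receptors 4 rose and 1 fell: Ifngr1, an interferon gamma receptor chain, by log2 2.29, Il2rg by 0.76, Il2rb by 0.56 and Ifngr2 by 2.10, while Il6ra fell by 3.12 on the log2 scale. Of 7 related kinases and STATs 4 rose and 0 fell: Stat3, the factor used by IL-23, by log2 1.78, Stat5a by 1.34, Stat5b by 1.25 and Jak3 by 0.55. Of 11 feedback inhibitors 7 rose and 2 fell, with Socs3 at log2 2.22, Socs1 at 1.24, Cish at 0.87 and Ptpn2 at 0.80, against Ptpn6 at -1.03 and Usp18 at -1.85. Of 11 IL-12 and STAT4 target genes 6 rose and 1 fell, among them Furin (log2 4.03), Map3k8 (2.85) and Gadd45b (3.75). The chemokine receptor Cxcr3 fell by 0.75 on the log2 scale. Of 15 IL-23 and STAT3 target genes 12 rose and 1 fell: Irf4 rose by log2 3.28, Rora by 2.19, Il22 by 6.65 and Prdm1 by 2.06, and Ccr6 fell by 1.21 on the log2 scale. The median log2 fold change was 1.49 over the IL-12 list and 2.19 over the IL-23 list, beside -0.04 over all genes. Of the 5 ligand subunits only Ebi3 was tested, and it rose by log2 0.98. The ILC3 marker list summed to between 82.8 and 733 CPM in CD3-positive cells of single libraries. Summing without the 360 CD3-positive cells that carried ILC3 markers left the calls of the 6 genes on the same side of the threshold.

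T cells of the colon epithelium were lower in Jak2, Stat4 and Il23r than those of the colon lamina propria. Jak2 was at 12.97 and 19.9 CPM in the control and KO epithelial libraries, below all 4 lamina propria libraries, with a log2 fold change of -2.11 ± 0.46 (adjusted p = 0.0134, edgeR). Stat4 was at 62.8 and 79.2 CPM, also below all 4, with a log2 fold change of -1.52 ± 0.33 (adjusted p = 0.0112, edgeR). Both epithelial libraries were of replicate 2, whereas lamina propria had both replicates. In control and KO lamina propria Jak2 was at 28.5 and 44.3 CPM in replicate 2 and at 85.1 and 63.6 CPM in replicate 1. Stat4 was at 97.5 and 145 CPM there in replicate 2 and at 205 and 206 CPM in replicate 1. With the replicate number as a block the calls of Jak2 and Stat4 held. Il23r was at 0.605 and 0.314 CPM in the epithelial libraries, from 9 cells with an Il23r UMI among 6949. Its log2 fold change of -2.14 ± 0.68 had an adjusted p of 0.0478 in edgeR, and 0.0800 with the replicate number as a block. That call was lost in 8 of 12 alternatives, among them the omission of any 1 library of the comparison. The calls for Jak2 and Stat4 were lost when either epithelial library was left out (adjusted p 0.0911 to 0.123), with the lone sample then assumed to vary like the other groups. So 3 of 6 genes were called lower, where 10.8% of genes were called lower and 8.52% higher. The 2188 genes called in all became 777 without the control epithelial library, 230 without the KO one and 1344 without KO colon lamina propria replicate 1.

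Il12rb1, Il12rb2 and Tyk2 did not pass the test between colon epithelium and colon lamina propria with all libraries. Without KO colon replicate 2 Il12rb1 passed it (adjusted p = 0.0425) and without control colon replicate 2 Il12rb2 did (0.0436). Il12rb1 was at 51.6 and 75.9 CPM in epithelium (log2 difference 0.51 ± 0.20), Il12rb2 at 49.2 and 80.6 CPM (-0.72 ± 0.33) and Tyk2 at 16.5 and 22.2 CPM (0.46 ± 0.24). Over all genes 10.8% were called lower and 8.52% higher. Of the IL-23 and STAT3 target genes 8 of 15 fell and 0 rose, with Irf4 at log2 -2.95, Rora at -1.74, Il1r2 at -2.67 and Il22 at -3.10. Of the related receptors 6 of 10 fell and 0 rose, with Ifngr1 at log2 -2.29, Il18r1 at -0.82, Il2rb at -0.91 and Il6st at -1.58. Stat5a, Stat5b and Stat3 also fell (log2 -1.19, -1.08 and -1.22).

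None of the 6 genes passed the test between small intestine and colon lamina propria, where 0.00885% of genes (1 of 11305) did; DESeq2 called 92 and also none of the 6. Il23r was highest there, at 3.09 CPM in the control and 4.20 CPM in the KO library, a log2 difference of 0.87 ± 0.59 (SE; adjusted p = 0.585, edgeR). For Il12rb2 the mean levels fell in the order colon lamina propria, small intestine (81.5 CPM), colon epithelium (64.9 CPM) and spleen (21.01 CPM), and the first 3 overlapped in their libraries. For Stat4 and Jak2 the order was colon lamina propria, small intestine (128 and 42.9 CPM), colon epithelium (71.0 and 16.4 CPM) and spleen (67.4 and 14.5 CPM), with epithelium and spleen overlapping. For Il12rb1 the order was colon epithelium (63.7 CPM), small intestine (53.5 CPM), colon lamina propria and spleen, with neighbours overlapping throughout. For Il23r the order was small intestine (3.64 CPM), colon lamina propria, spleen and colon epithelium (0.460 CPM), and only colon lamina propria and spleen overlapped as neighbours. For Tyk2 the means lay between 11.53 and 19.4 CPM in the 4 tissues.

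**Figure D2:**
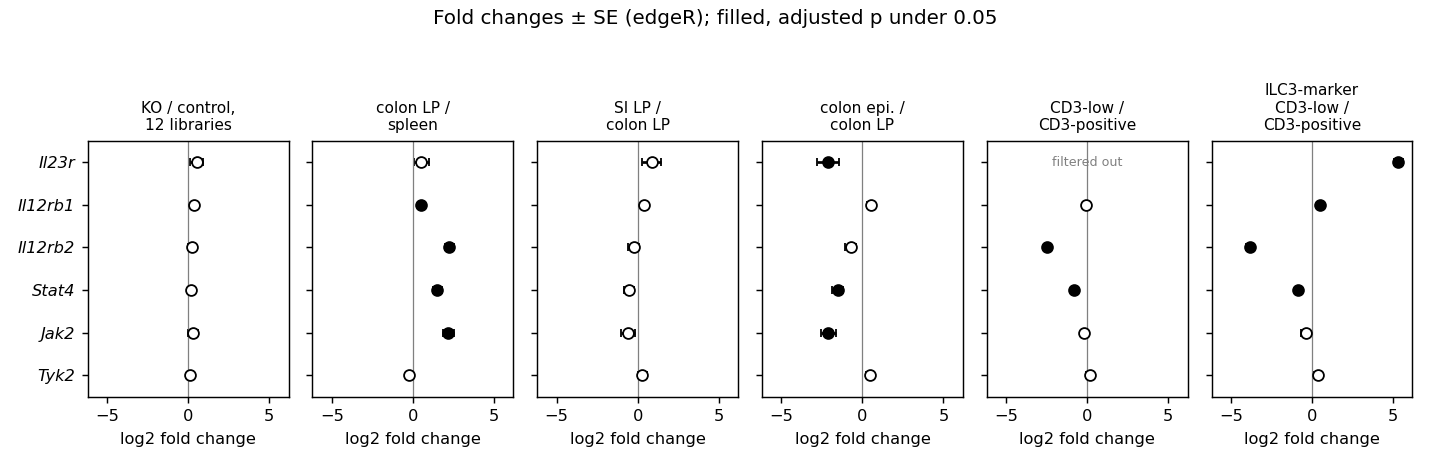
Log2 fold changes of the 6 genes with SE bars from edgeR's quasi-likelihood test in 6 comparisons; filled points have an adjusted p under 0.05, and Il23r was removed by the low count filter in the comparison of CD3-low with CD3-positive cells. Il12rb2 and Il23r lie farthest from 0, on opposite sides, in ILC3-marker cells.

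CD3-low cells differed from CD3-positive cells of the same library most in the chains that set the receptors apart. Il12rb2 and Stat4 were lower in CD3-low cells and Il23r was higher, and Il12rb1, Jak2 and Tyk2 did not pass the test. Among 7701 genes, 19.9% were called lower and 16.7% higher.

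Il12rb2 was lower in CD3-low cells in 12 of 12 libraries. It ranged from 1.97 to 28.6 CPM (median 12.2) in CD3-low and from 17.2 to 110 CPM (median 58.1) in CD3-positive cells. The log2 fold change was -2.50 ± 0.20 (adjusted p = 3.58e-08, edgeR). Leaving out ILC3-marker CD3-low cells brought it to -1.62. Stat4 was lower in 11 of 12 libraries, all but control spleen replicate 2 (80.7 against 68.8 CPM). It ranged from 11.7 to 108 CPM (median 67.0) in CD3-low and from 58.9 to 206 CPM (median 88.4) in CD3-positive cells, with a log2 fold change of -0.84 ± 0.16 (adjusted p = 0.000388, edgeR).

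Il23r was higher in CD3-low cells in 9 of 12 libraries. In control spleen CD3-low cells held 57.1 CPM (replicate 1) and 13.4 CPM (replicate 2), and in KO spleen 77.0 and 41.7 CPM. Control colon lamina propria had 51.3 and 21.3 CPM, and KO colon lamina propria 47.3 and 35.7 CPM. KO small intestine held 89.0 CPM. In the other 3 libraries no Il23r UMI was counted: control small intestine (89 cells, up to 17.5 CPM allowed by a count of 0), control epithelium (31 cells, up to 58.1 CPM) and KO epithelium (116 cells, up to 7.05 CPM). CD3-positive cells stayed between 0.314 and 4.20 CPM, below every CD3-low value above 0.

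Because the filter on low counts removed Il23r from this fit, its level was compared by an exact sign-flip permutation test over the 12 libraries, two-sided. The mean difference was 34.3 ± 29.4 CPM (SD), 36.2 ± 30.1 against 1.82 ± 1.24 CPM (SD), with p = 0.00391 in that exact permutation test. The edgeR fit without the filter gave a log2 fold change of 4.10 ± 0.37 (adjusted p = 1.13e-07). Without ILC3-marker cells in the CD3-low class the difference was 6.91 CPM (exact permutation p = 0.175), higher in 4 of 12 libraries. Limiting CD3-low cells to those without a Cd4 UMI gave 21.2 CPM (exact permutation p = 0.00781).

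Il12rb1 was higher in CD3-low cells in 4 of 12 libraries (log2 -0.06 ± 0.22, SE), Jak2 in 5 (-0.17 ± 0.23) and Tyk2 in 7 (0.14 ± 0.23). Their signs changed in some alternatives, and without ILC3-marker CD3-low cells Il12rb1 was lower by log2 -0.68 (adjusted p = 0.0492, edgeR). Over all 7701 genes tested, 19.9% were called lower and 16.7% higher. Of the IL-12 and STAT4 targets 5 fell and 2 rose of 10 tested, with Ifng at log2 -2.44, Cxcr3 at -1.998 and Tbx21 at -1.82 against Irf1 at 0.50 and Gadd45g at 1.36. Of the IL-23 and STAT3 targets 3 rose and 5 fell of 11 tested: Il22 (log2 4.89) and Ccr6 (4.19) were among those that rose, whereas Prdm1 (-1.35), Irf4 (-1.62), Il1r2 (-1.17) and Il17a (-2.15) were among those that fell. The class differences did not differ detectably between KO and control libraries. In edgeR the interaction term was called for 0% of genes and 100 genes had an unadjusted p under 0.05, and DESeq2 called 0. For Il23r without the filter the term was log2 0.35 ± 0.75 (SE). Since CD3-low cells may not carry the labelled genotype, the term is no test of Il23r loss in them.

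**Figure D3:**
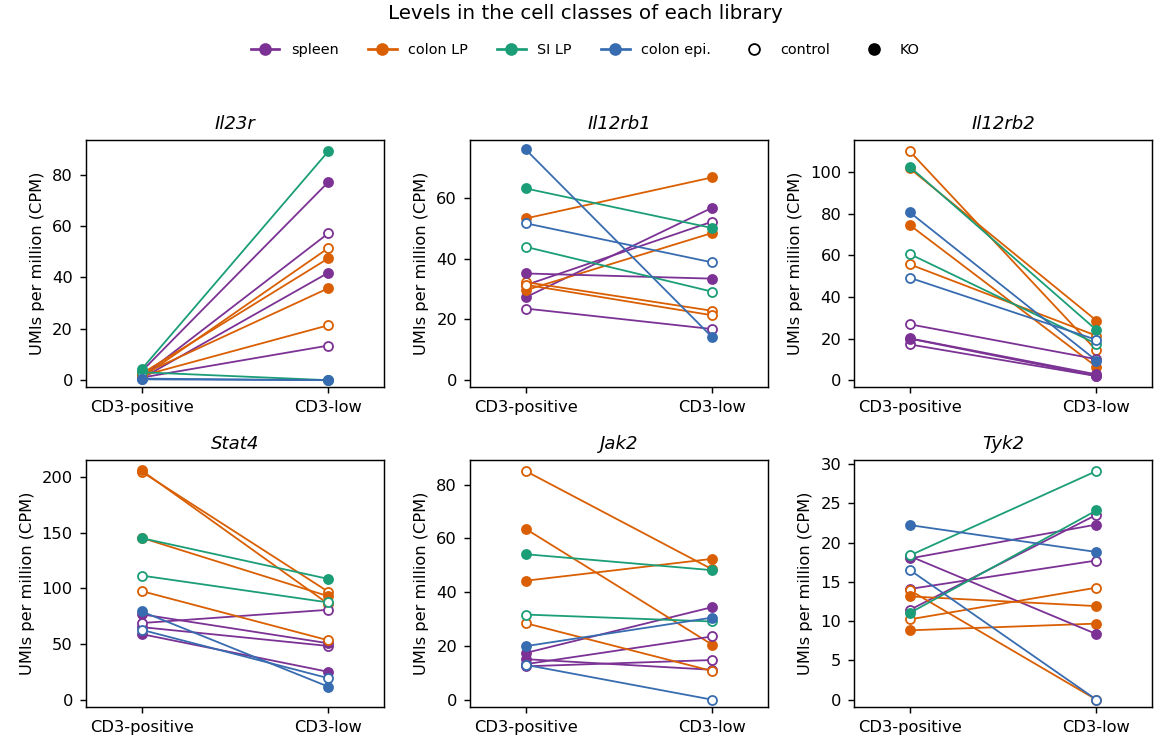
Levels of the 6 genes (CPM) in CD3-positive and CD3-low cells, with a line for each of the 12 libraries coloured by tissue and filled for KO. Il12rb2 falls along every line, Il23r rises along 9 of 12, and the lines of Il12rb1, Jak2 and Tyk2 cross.

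Cells were then sorted by marker lists, which hold none of the 6 genes: a cell needed 3 distinct markers of a list and more than of any other. Among CD3-low cells, those with ILC3 markers (among them Kit, Il1r1, Tmem176a, Tmem176b, Il22, Tnfsf11 and Ccr6) numbered 1072, or 47.7%. They held 306 of the 330 Il23r UMIs of that class (92.7%). Their summed Il23r level was 81.7 CPM (exact Poisson 95% interval 72.8 to 91.4, counting error only), and their Il12rb2 level was 4.27 CPM (2.44 to 6.94). CD3-positive cells with T cell markers (20592 cells) had 1.29 CPM of Il23r (1.06 to 1.57) and 58.2 CPM of Il12rb2 (56.5 to 59.9). The 215 CD3-low cells with T cell markers lay nearer to the CD3-positive cells, at 9.40 CPM of Il23r (3 UMIs, 1.94 to 27.5) and 43.9 CPM of Il12rb2 (23.97 to 73.6). Those 215 cells were 9.56% of the CD3-low cells and held 38 of the 433 Stat4 UMIs of that class (8.78%). Whether Stat4 was lower in them than in CD3-positive cells was not tested. The 712 CD3-low cells of no list had 19.5 CPM of Il23r and 32.6 CPM of Il12rb2.

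The pattern of ILC3-marker cells recurred across the libraries with at least 20 such cells. In the 8 of them Il23r stood at 65.5 and 54.4 CPM in control spleen, 86.2 and 139 CPM in KO spleen, 90.9 CPM in control colon (replicate 1), 63.5 and 87.7 CPM in KO colon and 104 CPM in KO small intestine. The lowest of these was above every CD3-positive level. Il12rb2 there was at 0 to 10.1 CPM per library. Among libraries with fewer cells, control small intestine (18 cells) had 0 Il23r UMIs, with up to 67.1 CPM allowed by a count of 0. Control colon replicate 2 (9 cells) had 170 CPM from 4 UMIs (46.2 to 435 CPM), and control and KO epithelium (1 and 2 cells) had 0 Il23r UMIs. Against CD3-positive cells of the 8 libraries the log2 fold change was 5.33 ± 0.28 for Il23r (adjusted p = 4.30e-12, edgeR), -3.81 ± 0.26 for Il12rb2 (adjusted p = 1e-10, edgeR) and -0.84 ± 0.15 for Stat4 (adjusted p = 0.000109, edgeR). Il12rb1 was higher by log2 0.50 ± 0.19 (adjusted p = 0.0410, edgeR), a call lost in 7 of 12 alternatives, with adjusted p up to 0.326. Those leaving out 1 library concerned spleen replicate 1 of either genotype, KO spleen replicate 2 and KO colon replicate 1 (adjusted p 0.0670 to 0.199). Jak2 (-0.39 ± 0.28) and Tyk2 (0.35 ± 0.23) did not pass the test. Among 7543 genes 19.7% were called higher and 22.2% lower. Of the 7 related kinases and STATs, Jak3 rose (log2 0.66) and 0 fell, and of 10 tested feedback inhibitors Socs1 (1.95), Socs3 (1.18) and Pias1 (0.38) rose and Socs2 (-1.55) and Ptpn1 (-0.64) fell.

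At an equal depth of 1500 UMIs, 12.9% of ILC3-marker CD3-low cells held an Il23r UMI (120 of 933, 139 shallower cells left out), and 0.230% of CD3-positive cells did (62 of 26952, 2671 left out). Without thinning the shares were 22.8% and 0.493%, at median depths of 3290 and 2869 UMIs. Cells with epithelial (94), erythroid (42) or stromal markers (47), which should lack the gene, held 0 Il23r UMIs, which allows shares of up to 3.19%, 7.14% and 6.38%. These limits lie above the share in CD3-positive cells, so free RNA in the droplets could not be bounded for that share at this depth. Of the 266 CD3-low cells with an Il23r UMI, 97.0% had a Tmem176b UMI, 59.8% a Ccr6 UMI and 53.4% an Il22 UMI. Among the 1982 CD3-low cells without one the shares were 50.6%, 23.4% and 28.8%, at a median depth of 1926 UMIs against 3731. Cd4 UMIs were present in 64.3% and Il12rb2 UMIs in 0.752% of the cells with Il23r.

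**Figure D4:**
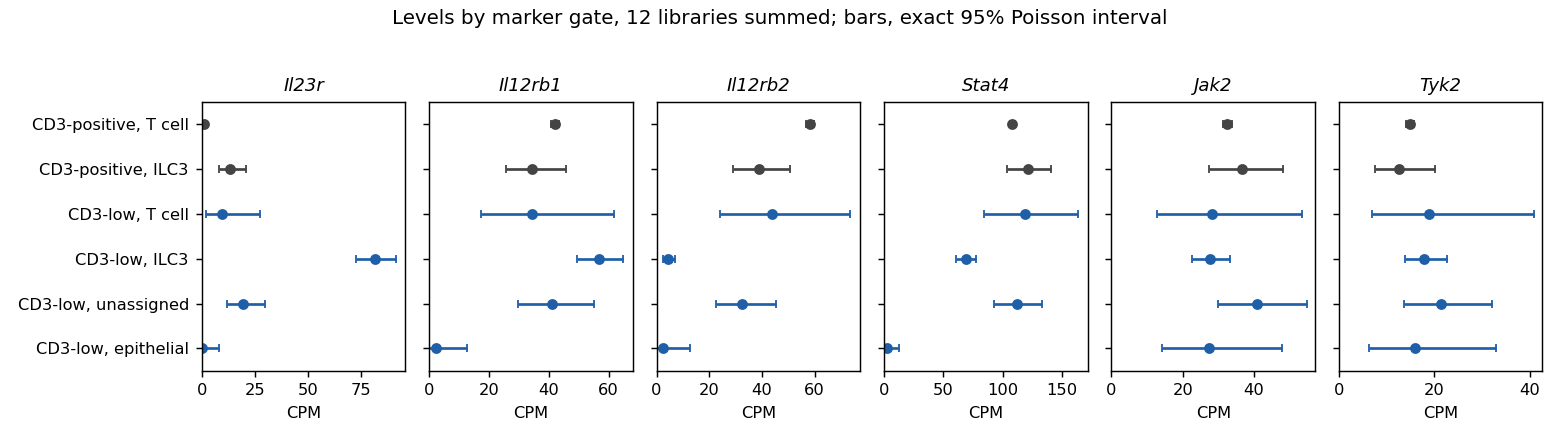
Levels (CPM, x axes from 0) of the 6 genes in cells sorted by marker lists, summed over 12 libraries, with exact 95% Poisson intervals; grey points are CD3-positive and blue points CD3-low cells. CD3-low ILC3-marker cells are the highest for Il23r, at 81.7 CPM, and among the lowest for Il12rb2, at 4.27 CPM.

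Within CD3-positive cells Il23r was rare, with 159 UMIs in 146 of 29623 cells, and it was more frequent in cells that held UMIs of Il17a or Il22. These cells were picked by a measured transcript, so the values are a description. Il23r stood at 13.8 CPM (95% Poisson interval 8.76 to 20.7) in the 329 cells with an Il17a UMI and at 1.32 CPM (1.11 to 1.56) in the rest. It stood at 5.49 CPM (3.87 to 7.57) in the 1377 cells with an Il22 UMI and at 1.25 CPM (1.04 to 1.49) in the rest. Il22 is itself on the ILC3 marker list, and this split was not repeated without the CD3-positive cells that carried ILC3 markers. Within colon lamina propria alone the Il17a values were 14.0 and 1.55 CPM. With a Tbx21 UMI, the Th1 factor, Il23r was at 0.821 CPM (0.494 to 1.28), against 1.72 CPM (1.45 to 2.03) without. The 360 CD3-positive cells with ILC3 markers held 19 of the 159 UMIs, at 13.4 CPM. In single libraries the CD3-positive level was highest in KO small intestine (4.20 CPM), where 23.0% of all cells were ILC3-marker CD3-low cells. It was lowest in the epithelial libraries, where 0.0269% and 0.0579% were. Between these, KO spleen replicate 1 had 3.36 CPM with 14.9% such cells. Control small intestine had 3.09 CPM with 0.8%, and control spleen replicate 1 had 1.26 CPM with 13.2%. Level and share thus went together in some libraries and not in others. The part of free RNA in this was not tested.

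Il12rb2 was higher in cells with an Ifng UMI and lower in cells with an Il17a UMI. It was at 69.0 CPM (66.2 to 72.0) in the 7697 cells with an Ifng UMI and at 50.9 CPM (49.3 to 52.6) in those without. Within colon lamina propria these values were 88.6 and 77.0 CPM, and within small intestine 94.1 and 62.4 CPM. It was lower in cells with an Il17a UMI (33.6 against 56.8 CPM, and 37.8 against 82.4 CPM within colon lamina propria). Stat4 and Jak2 were higher in cells with an Il22 UMI, at 167 against 103 CPM and 56.5 against 29.6 CPM. Most Il22-positive cells came from colon lamina propria (971 of 1377), where the values were 180 against 159 CPM and 63.0 against 51.9 CPM.

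**Figure D5:**
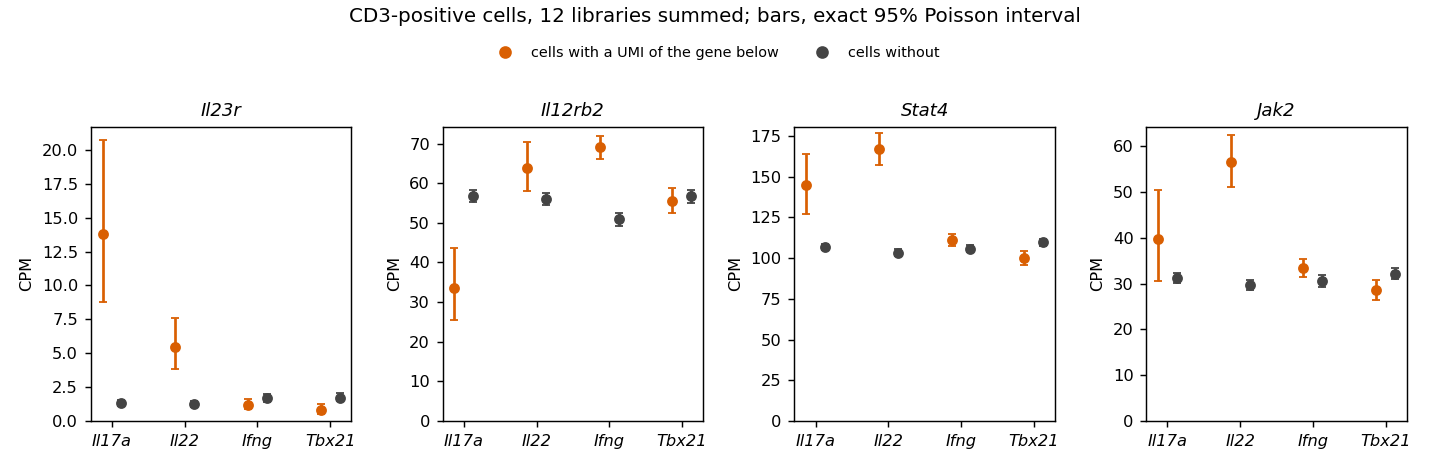
Levels (CPM, y axes from 0) of Il23r, Il12rb2, Stat4 and Jak2 in CD3-positive cells with (orange) and without (grey) a UMI of the gene named on the x axis, summed over 12 libraries, with exact 95% Poisson intervals. Il23r is highest in cells with an Il17a UMI, at 13.8 CPM, and Il12rb2 in cells with an Ifng UMI, at 69.0 CPM.

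Likeness to other genes was measured as Pearson's r of log2(CPM + 1) over the 24 sums of 12 libraries by 2 classes, among 9496 genes with a mean of at least 5 CPM. The sums of a library share its preparation and the CD3-low sums are shallow, so r is a description. Genes chosen this way follow the member between the classes by that choice, so folds given for them are no further evidence. Closest to Il23r were Gm11551, Nr1d1, Blk and Rgs12 (r = 0.967, 0.967, 0.965 and 0.955), then Cnnm2, Gpr157, Ttc28, Gpr162, Coro2b and Rbpms2 (0.945 to 0.909). Nr1d1, the nuclear receptor REV-ERB alpha, was higher in ILC3-marker CD3-low than in CD3-positive cells by log2 5.11 and Blk, a Src family kinase, by 6.81. Closest to Il12rb2 were Sesn3, Gzmb, Fasl and Cd40lg (0.939 to 0.931), and Gzmb, the protease granzyme B, was lower in ILC3-marker cells by log2 -3.77 and Cd40lg, the CD40 ligand, by -5.42. Among the closest to Stat4 were Nhp2l1, Cytip and Ets1 (0.920 to 0.914). Closest to Il12rb1 were Jak3, Rcbtb2, Ptk2b and Nfatc1 (0.714 to 0.687), to Jak2 Mepce, Kdm2b, Usp38 and Slc35e2 (0.948 to 0.925), and to Tyk2 Cln3, Mast3, Csnk1g1 and Nit2 (0.954 to 0.937). Among the 6 genes themselves r was highest between Stat4 and Jak2 (0.670) and lowest between Il23r and Il12rb2 (-0.561).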

How the data were processed

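The authors' deposited matrix held counts, that is UMIs per gene and cell (10x Chromium 3′ version 2 per the labels' protocols), with library, genotype, tissue and batch per cell. Cell Ranger 2.0.2 and mm10 are the software and build per the submitters' processing notes. The sources used here do not say how cells and genes were filtered or how channels were loaded, and no doublet caller was run. UMIs were summed per library over CD3-positive cells, CD3-low cells or marker-sorted cells, for libraries with at least 20 cells per class. CPM, on the counts-per-million scale, relates a gene's UMIs to all UMIs of such a sum.

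The main test was edgeR 4.0.16 (R 4.3.3): filterByExpr, TMM, robust quasi-likelihood fits over all genes kept, Benjamini-Hochberg adjustment at 0.05. SE is the absolute log2 fold change over the square root of F. Genotype within a tissue was fitted on 8 libraries in 4 groups. Genotype over 12 libraries and the tissue contrasts came from a fit with tissue and genotype. Cell classes were compared with library as block. Fits were tested on simulated counts. Alternatives were DESeq2 1.42.0, no filter, all cells, other CD3 thresholds, thinning to 1500 UMIs, removal of cells over 10% mitochondrial UMIs or over 3 times the median depth, the replicate block and each library left out. Leaving out ILC3-marker cells was chosen after seeing the data. Same-numbered samples deviated together (r 0.171 to 0.423 over 6 pairs of groups) and the deposited batch equals the number, so numbers were read as pairing samples. The main genotype and tissue fits left this pairing out, and only the alternative with the replicate block took it in. The sign-flip test took the 12 libraries as independent units. Intervals are exact and cover counting error only.

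Named genes were the 6 members, up to 4 genes per direction of each pathway list by p-value, and the genes most like each member. In ILC3-marker cells the marker genes were not reported as tested. Results of some named genes are not reported here. The members and lists were chosen with earlier results of these data known.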

Additional observations from a re-analysis of the deposited data

Results flagged for a closer look

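Il12rb1 in CD3-positive cells of colon lamina propria had 1 library far from the others: KO replicate 2 held 53.2 CPM and the other 3 held 29.6 to 32.2 CPM. Il12rb2 in CD3-low spleen cells had 1 as well, control replicate 2 at 10.1 CPM beside 1.97 to 2.78 CPM. These levels rest on very few UMIs, since CD3-low cells of all 12 libraries together held 69 Il12rb2 UMIs. The flag takes no account of counting error, so this library may differ by counting error alone. Of 24 groups of 4 libraries, 2 held such a library, and chance gives about 1 in 20.

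The Tyk2 ratios of KO to control had opposite signs in 2 tissues. In spleen its log2 ratio of KO to control was 0.35 in replicate 1 and 0.68 in replicate 2, and in colon lamina propria it was -0.21 and -0.083. In edgeR without the filter the log2 fold change was 0.47 ± 0.31 (SE) in spleen and -0.094 ± 0.31 in colon lamina propria, and neither was called. Signs from so few pairs can differ this way by chance. The difference between the tissues was not tested.

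The 892 cells with 2 CD3 UMIs, which entered neither class, held 19 Il23r UMIs in 16 cells. That is 11.5 CPM, above the 1.82 CPM that a count of 0 allows in their 1649672 UMIs and between the summed levels of CD3-positive (1.52 CPM) and CD3-low cells (52.6 CPM).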

How the results depend on the processing

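The higher Il12rb2, Stat4 and Jak2 of colonic over splenic T cells kept direction and call in all 14 alternatives. So did the lower Il12rb2 and Stat4 of CD3-low cells in 19, and the higher Il23r and lower Il12rb2 and Stat4 of ILC3-marker cells in 12. The causes of the changes below were not tested. Il23r rests on 159 UMIs in CD3-positive and 330 in CD3-low cells.

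Counts of called genes moved as follows. For CD3-low against CD3-positive cells, 2815 became 6663 without the filter, 1660 after thinning and 1635 without ILC3-marker CD3-low cells. For ILC3-marker cells 3166 became 5276 without the filter and 1924 after thinning, with fewer UMIs. For KO against control 0 became 3 with DESeq2 and 70 without the filter in spleen, 83 without the filter in colon, and 3 and 6 over 12 libraries. For small intestine against colon lamina propria 1 became 5 with all cells, 92 with DESeq2, 35 without the filter and 0 with the replicate block. Leaving out 1 library gave 0 to 63 there (63 without control colon replicate 2), 230 to 2843 for epithelium against lamina propria and 0 to 1 for KO in colon.

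Signs turned only among differences that missed the threshold. For CD3-low against CD3-positive cells, Il12rb1 was 0.14 with 0 against 5 or more CD3 UMIs, 0.32 thinned and 0.062 without high mitochondrial or high UMI cells, Jak2 0.026 without ILC3-marker cells, and Tyk2 -0.018 without Cd4 UMIs and -0.054 without the filter. In the genotype difference between classes, Il12rb1 was -0.019 with 0 against 5 or more CD3 UMIs, -0.032 without Cd4 UMIs and -0.35 thinned, and Il12rb2 0.85 with 0 against 5 or more. Il23r in colon against spleen was -0.61 with all cells. KO against control for Stat4 in spleen was 0.012 at 5 or more CD3 UMIs and 0.00502 without ILC3-marker cells.

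Leaving out 1 library gave, for CD3-low cells, -0.20 to 0.13 for Il12rb1, -0.32 to 0.0071 for Jak2 and -0.017 to 0.24 for Tyk2, and -0.26 to 0.16 for Tyk2 in the genotype difference between classes. KO against control gave -0.00273 to 0.23 for Tyk2 over 12 libraries. In colon it gave -0.44 to 0.81 for Il12rb2, -0.74 to 1.09 for Jak2, -0.31 to 1.02 for Stat4 and -0.31 to 0.076 for Tyk2. In spleen it gave -0.083 to 0.41 for Il12rb1, -0.42 to 0.14 for Il12rb2, -0.77 to 1.59 for Il23r and -0.25 to 0.21 for Stat4. Small intestine against colon gave -0.63 to 0.079 for Il12rb2 and -0.29 to 0.62 for Tyk2.

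The replicate block turned Jak2 in KO against control colon to 0.040, and among calls of the 6 genes it changed only that of Il23r in epithelium.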
